A study of Mus musculus with 9 samples.

Results

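Cytokines and chemokines are secreted proteins through which cells signal to each other, and each acts through receptor chains on the responding cell. Chemokines of the CXC, CC and CX3C families bind G protein-coupled receptors and guide leukocytes, whereas most interleukins assemble receptors of several chains that signal through JAK kinases and STAT factors or, for the IL-1 and IL-17 families, through adaptors that lead to NF-kappaB. Endothelial cells are known as a source of chemokines that draw leukocytes to the vessel wall, and they carry receptors for a number of cytokines. The genes described here were chosen by symbol, as those with a probe set whose platform annotation gives 1 gene symbol that starts with Il and a digit, Ccl, Ccr and a digit, Cxcl, Cxcr or Cx3cl, or that equals Csf1, Csf2, Csf3, Tnf, Lif, Lifr or Il6st, with Cxcr4 left out. This gave 106 of the 15964 genes named by a single symbol, with 145 of the 36701 probe sets. Of these, 80 probe sets of 62 genes were for ligands, 63 probe sets of 42 genes were for receptors, and 2 were for neither (Il18bp, a soluble protein that binds IL-18, and Il4i1, an enzyme). No probe set carried the symbol Lif alone, and 6 probe sets that share a fitting symbol with other symbols, among them those of the Ccl19, Ccl21 and Ccl27 genes, were not members.

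All arrays carried RNA of cells sorted for green fluorescence from retinas of homozygous Tie2-GFP mice at postnatal day 8. In these mice the promoter of the endothelial receptor gene Tie2, which is also active in some blood cells, drives GFP. Every animal had received APB5, an antibody that neutralises PDGFRb, by intraperitoneal injection from day 0 to day 7, and no untreated group was analysed here. Pooled retinas were digested with papain over several incubations at body temperature, propidium iodide marked dead cells, and amplified RNA was hybridised. The 9 arrays were of the Affymetrix MGU74v2 designs A, B and C, which hold different probe sets, with 3 replicates each. Nothing in the labels tells whether each replicate was its own pool of pups, so spreads and p-values measure differences between these arrays, which may be technical.

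With 1 condition, the question these arrays can answer is where cytokine and receptor probe sets lay within the arrays. The position of a probe set is given as its percentile rank within the array (0 lowest, 100 highest), as mean ± SD over 3 arrays. Each probe set was also tested with limma for a difference between its log2 intensity and the median of its array, with p-values adjusted by the Benjamini-Hochberg method over all probe sets of the design, and was called above or below the median at an adjusted p under 0.05. Array medians lay between 42.94 and 44.51 intensity units for designs A and B, and design C had medians of 32.3 to 32.9. Probe sets differ in how well they hybridise, so these positions describe probe sets and give no order of transcript levels between genes. In sorted bulk cells, fewer cells of a type and less RNA per cell cannot be told apart.

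Endothelial markers were called above the array median more often than those of any other cell type listed. Of 22 probe sets of 13 endothelial marker genes, 18 were called above the array median, at a median percentile of 93.8, with both probe sets of Egfl7 called below. Above calls covered 7 of 27 probe sets for microglia and macrophages, 1 of 13 for T and B cells, 2 of 10 for granulocytes, 3 of 5 for platelets and 2 of 16 for mural cells. For retinal cells they covered 6 of 15 probe sets of neurons and photoreceptors and 5 of 16 of Muller glia and astrocytes. The microglia and macrophage markers did not share a position, with 15 of the 27 probe sets called below. The microglial receptor gene P2ry12 lay at percentile 2.12 ± 0.32, on a probe set marked by its name as designed with relaxed rules. The 3 probe sets of the blood cell gene Laptm5 lay at 79.4, 80.3 and 98.8. Cx3cr1, C1qc, Csf1r and Fcer1g each had a probe set called above, at 70.2, 71.8, 87.2 and 78.8, and another that was not. Genes of unrelated tissues such as liver, pancreas and testis gave a level for genes that endothelial cells are not known to use, and 17 of their 62 probe sets (27.4%) were called above the median. Replicate arrays of a design correlated with r between 0.981 and 0.987 over log2 intensities of all probe sets. The median SD over replicates was 0.13 on the log2 scale for member probe sets, the same to 2 decimals as for all probe sets with 1 symbol.

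Cytokine and receptor probe sets lay low as a whole, with a small high-signal fraction. Of the 145 member probe sets, 40 (27.6%) were called above the array median and 85 (58.6%) below it, against 44.1% above and 44% below for all 36701 probe sets tested (limma, adjusted p under 0.05). The share above is close to the 27.4% of genes of unrelated tissues. With each array's 40th percentile in place of its median the split was 58 above and 70 below. With the 75th percentile it was 15 above and 125 below. Another reference moves these counts by construction, and no share over all probe sets was computed at either level. The median percentile of members was 35.5, against 52.1 for all 29131 probe sets with 1 symbol. At percentile 75 or more lay 17 member probe sets (11.7%), against 26.5% of all probe sets with 1 symbol. At percentile 90 or more lay 7 (4.83%), for Cxcl1, Cxcl12, Il10rb, Il20rb and Il17rd, against 10.7%.

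**Figure D1:**
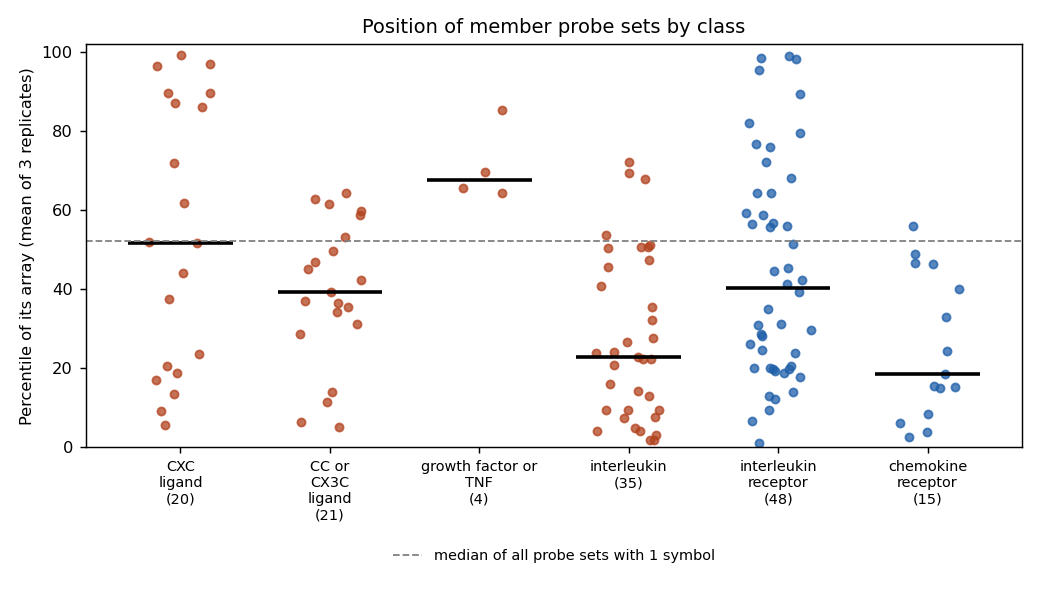
Percentile of each member probe set within its array (mean of 3 replicates) by class, ligands in red and receptors in blue, with the number of probe sets in brackets, the class median as a black bar and the median of all probe sets with 1 symbol (52.1) as a dashed line. CXC ligands reach percentile 99.1 and interleukin receptors 99.0. Among these members no chemokine receptor lies above 56.0 and no interleukin above 72.2.

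Among ligands, the CXC chemokines were the class with the most high positions. Of their 20 probe sets for 12 genes, 9 (45%) were called above the array median and 9 (45%) below. These shares were close to the 44.1% above and 44% below of all probe sets. At percentile 75 or more lay 7 (35%), for Cxcl1, Cxcl2, Cxcl12, Cxcl16 and Cxcl17, against 26.5% of all probe sets with 1 symbol. Cxcl1, a neutrophil attractant that acts through Cxcr2, read 1507.73, 1590.55 and 1503.59 on 1 probe set of design A and 703, 677 and 597 on the other. These intensities were 34.8 times and 14.9 times the array median (log2 differences 5.12 ± 0.071 and 3.90 ± 0.082, SE, n = 3; limma, adjusted p = 3.0e-08 and 7.7e-08). All 6 readings lay above the 90th percentile of their arrays, which was at most 262.6. The name of the first of these probe sets marks it as shared with related sequences.

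Cxcl2, which lies close to Cxcl1 on chromosome 5 and acts on the same receptor, read 142, 231 and 278 in replicates 1, 2 and 3. Its log2 difference from the array median was 2.25 ± 0.17 (SE, n = 3; limma, adjusted p = 1.7e-05), and all 3 arrays were above their 75th percentile. With a range of 0.97 on the log2 scale, it was the ligand that varied most between replicates. The summed intensity of the microglia and macrophage markers over the designs was 1723 in replicate 1, 2054 in replicate 2 and 2101 in replicate 3. These sums join arrays of designs A and C by replicate number, and nothing in the labels ties equal numbers to the same RNA. Cxcl2 was read on design A only. The 3 probe sets of Laptm5 alone summed to 649, 1150 and 1112, and the other 24 probe sets of the list to 1074, 904 and 990, highest in replicate 1. Most of the Laptm5 sum came from design C (486, 810 and 787), and on design A Laptm5 read 83.7, 156 and 156, and 79.3, 184 and 168. The part of these markers in the Cxcl2 values was not tested. Cxcl5, another ligand of Cxcr2, was called below the median at 16.4, 17.2 and 13.5 (adjusted p = 5.9e-06).

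Cxcl1 and Cxcl2 share an exact match to the NF-kappaB consensus upstream of their start sites, while the interferon-inducible Cxcl10 and the cytokine gene Il6, which both carry matches too, were called below the array median. Those 4 upstream stretches are shown because they set a sequence feature known from inducible cytokine genes beside high and low signals. They come from RefSeq on GRCm38.p6, run 5′ to 3′ on the gene's strand and end at the base before the start site, with the matches in capitals. They lie at chr5:90890995-90891244 (plus strand) for Cxcl1, chr5:90903649-90903898 (plus strand) for Cxcl2, chr5:92348890-92349139 (minus strand) for Cxcl10 and chr5:30012864-30013113 (plus strand) for Il6.
Cxcl1: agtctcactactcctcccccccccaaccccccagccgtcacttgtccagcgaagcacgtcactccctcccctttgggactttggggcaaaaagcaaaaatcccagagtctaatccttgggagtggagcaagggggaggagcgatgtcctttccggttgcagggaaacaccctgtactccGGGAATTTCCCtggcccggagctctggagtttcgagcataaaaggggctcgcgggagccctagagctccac
Cxcl2: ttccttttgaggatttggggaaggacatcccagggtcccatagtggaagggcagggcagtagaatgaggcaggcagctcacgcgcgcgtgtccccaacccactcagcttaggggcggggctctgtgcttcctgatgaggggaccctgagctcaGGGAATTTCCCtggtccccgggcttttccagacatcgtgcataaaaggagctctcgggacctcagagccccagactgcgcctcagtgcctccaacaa
Cxcl10: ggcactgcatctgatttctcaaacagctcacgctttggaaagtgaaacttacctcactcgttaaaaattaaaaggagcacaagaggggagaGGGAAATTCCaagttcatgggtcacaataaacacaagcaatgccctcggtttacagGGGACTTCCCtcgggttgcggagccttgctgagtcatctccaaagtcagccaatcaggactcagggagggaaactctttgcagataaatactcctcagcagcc
Il6: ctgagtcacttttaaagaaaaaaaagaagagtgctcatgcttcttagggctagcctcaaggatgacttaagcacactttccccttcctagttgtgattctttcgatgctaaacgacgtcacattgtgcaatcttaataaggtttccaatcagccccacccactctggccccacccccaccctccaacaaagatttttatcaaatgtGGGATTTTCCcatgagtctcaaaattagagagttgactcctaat
The match GGGAATTTCCC starts 71 bases before the start site in Cxcl1 and 97 bases before it in Cxcl2. Cxcl10 holds GGGAAATTCC at 159 and GGGACTTCCC at 103 bases, and Il6 holds GGGATTTTCC at 44 bases. The consensus, searched on both strands with overlapping matches joined, was found in the 250 bases upstream of 7 of 44 ligand genes (15.9%) and 4 of 34 receptor genes (11.8%), against 4.46% of 27025 genes with such a window. Csf1, Ccl9 and Il16 were the other ligand genes, and Ccr3, Ccr6, Il1r1 and Il2ra the receptor genes. Of these 11 genes, Cxcl1, Cxcl2, Csf1 and Ccr6 had a probe set called above the median. Over all 15964 genes with a single symbol, 61% had such a probe set. This share is no matched reference, because member genes as a whole were called above less often. With only 11 genes, whether a match goes with an above call was not tested. The call of Ccr6 depended on which replicates were kept. A match describes letters in the window and does not show binding.

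Cxcl12, the ligand of Cxcr4 that is made by stromal and endothelial cells, had 4 probe sets. On design A they read 575, 577 and 661, then 255, 297 and 204, and then 83.8, 86.4 and 92.6 in the 3 replicates, and all were called above the median (log2 differences 3.78, 2.50 and 0.99; limma, adjusted p = 7.2e-08, 1.3e-06 and 1.3e-05). The probe set on design B read 44.6, 44.2 and 48.4 and was not apart from the median (adjusted p = 0.42). The percentile was 96.4 on the highest of them, whose name marks it as shared with similar sequences, and 51.8 on the lowest.

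Cxcl16, a membrane-bound chemokine and scavenger receptor, gave opposite calls. It read 178, 187 and 205 on 1 probe set of design B (log2 difference 2.12 ± 0.076, SE; adjusted p = 3.4e-07), and 7.76, 9.51 and 11.97 on another (adjusted p = 1.8e-06, below). On design C it read 31.8, 35.2 and 35.3, not apart from the median. The low probe set on design B is marked by its name as designed with relaxed rules. Cxcl17, a mucosal chemokine, read 103, 112 and 106 on design C (log2 difference 1.71 ± 0.070, SE; adjusted p = 6.2e-06) and 55.9, 61.4 and 62.1 on design B (adjusted p = 0.00090), above the median on both.

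The interferon-inducible ligands of Cxcr3 were all called below the array median. Cxcl9, on design A, read 20.6, 19.6 and 16.96, Cxcl10 read 30.9, 33.0 and 33.0, and Cxcl11 on design C read 14.1, 13.2 and 11.2 (limma, adjusted p = 1.1e-05, 0.00079 and 2.8e-05). Against the 40th percentile, Cxcl10 was no longer apart (adjusted p = 0.29). The lowest CXC gene by the mean of its probe sets was Cxcl13, which draws B cells and read 9.66, 16.3 and 11.2. Also called below were Cxcl14 and Cxcl15.

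CC and CX3C chemokines reached no high position. Of 21 probe sets for 17 genes, 5 (23.8%) were called above the median and 12 (57.1%) below, against 44.1% and 44% of all probe sets. The class ranged from percentile 5.04 to 64.4. Ccl2, the monocyte attractant that acts through Ccr2, read 54.0, 80.1 and 68.9 (log2 difference 0.60 ± 0.11, SE; limma, adjusted p = 0.0019), above the median of all 3 arrays and below their 75th percentile. The mucosal chemokine Ccl28 (47.3, 65.8 and 68.0), the eosinophil attractant Ccl24 (63.7, 50.2 and 53.1) and 1 of 2 Ccl1 probe sets (54.7, 65.4 and 53.4) were the others above it, with Cx3cl1. The call of Ccl28 was lost without replicate 3 (adjusted p = 0.051).

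Cx3cl1, which encodes the membrane-anchored chemokine fractalkine of endothelium and neurons, read 80.4, 60.8 and 50.3 on design B (adjusted p = 0.0075, above), on a probe set marked as shared with similar sequences. Its probe sets on design A read 37.0, 36.5 and 42.5, not apart from the median, and 33.9, 32.8 and 34.2, called below (adjusted p = 0.0016). Without replicate 3 the first of these was called below (adjusted p = 0.042). The gene of its receptor, Cx3cr1, which is not a member, was called above on design C at 59.0, 52.5 and 57.6, and was not apart from the median on design A.

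The other CC chemokines were called below the median or were not apart from it. Ccl3, made by activated macrophages, read 41.1, 37.0 and 44.0 and was not apart from it (adjusted p = 0.21). Ccl5, a T cell attractant, read 26.0, 28.7 and 28.0, and Ccl7, another ligand of Ccr2, read 10.3, 10.4 and 10.6 (limma, adjusted p = 9.9e-05 and 3.8e-07). The eosinophil attractant Ccl11 had the lowest signal of the class at 7.85, 11.02 and 7.98. Ccl4, Ccl6, Ccl8, Ccl9, Ccl12 and Ccl17 were also called below, and Ccl22 and Ccl25 were not apart from the median.

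All 4 probe sets of the growth factor and TNF group, each of a different gene, were called above the array median, against 44.1% of all probe sets. Csf1, the growth factor of macrophages and microglia, read 187, 170 and 166, or 3.96 times the median (log2 difference 1.98 ± 0.077, SE; limma, adjusted p = 7.0e-07). Csf3, the growth factor of neutrophils, read 83.4, 74.6 and 80.7, Csf2 read 83.1, 61.8 and 65.9, and the inflammatory cytokine gene Tnf read 72.2, 77.6 and 53.2 (adjusted p = 3.6e-05, 0.00075 and 0.0024). Csf1 exceeded the 75th percentile of each array, and Csf2, Csf3 and Tnf did not. Of their receptors outside the members, Csf1r had 1 probe set of relaxed design called above at 341, 126 and 242 and another called below at 33.0, 34.2 and 31.5. Tnfrsf1a, the main TNF receptor, lay at percentile 83.5 and 78.8, and Tnfrsf1b at 77.3. Csf2ra, the chain that binds GM-CSF, was called below (30.4, 30.6 and 34.4). The signalling chain Csf2rb was called above on design B (104.05, 60.1 and 51.5; adjusted p = 0.012) and was not apart from the median on design A. The 3 probe sets of Csf3r spread over both sides of the median.

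**Figure D2:**
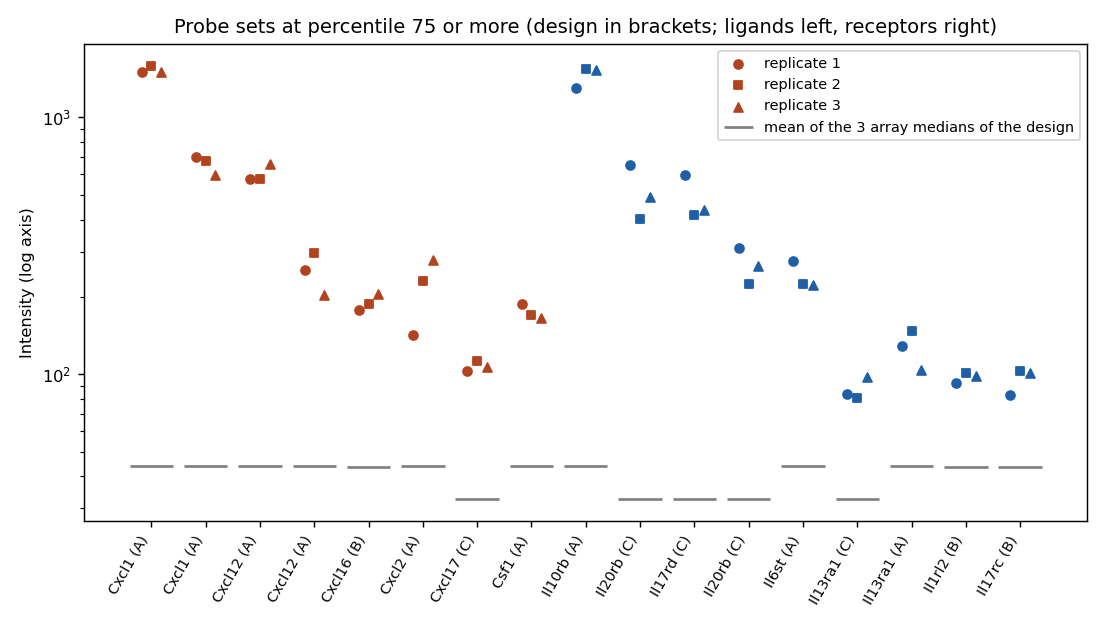
Intensity (log axis) in replicates 1, 2 and 3 for the 17 member probe sets at percentile 75 or more, with the array design in brackets, ligands in red on the left and receptors in blue on the right. Grey bars mark the mean of the 3 array medians of the design, and every point lies above its bar.

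Interleukin genes were mostly called below the median. Of 35 probe sets for 29 genes, 3 (8.57%) were called above, 25 (71.4%) below and 7 not apart, with a class median at percentile 22.8. Over all probe sets, 44.1% were called above and 44% below. The 3 above were Il31, an itch-related cytokine of T cells (57.8, 54.5 and 70.3 on design C), Il25, a member of the IL-17 family (53.9, 57.5 and 53.1 on design C), and Il3, a growth factor of blood progenitors (90.4, 69.1 and 68.3). None of the 3 reached percentile 75, and the Il31 probe set is marked by its name as designed with relaxed rules.

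The inflammatory interleukins did not share 1 position. Il1b, a product of activated myeloid cells, read 56.4, 39.1 and 41.4 and was not apart from the median (log2 difference 0.03 ± 0.12, SE; adjusted p = 0.80). Replicate 1 lay above it and the other replicates below, and without replicate 1 the difference was -0.14 (adjusted p = 0.27). Against the 40th percentile it was called above (adjusted p = 0.019). Il1a read 20.04, 24.2 and 21.0, and Il6, the main ligand of the IL-6 receptor, read 10.1, 12.99 and 10.8, both called below (limma, adjusted p = 2.1e-05 and 1.4e-06). Il18 read 35.4, 34.2 and 34.8 (adjusted p = 0.0031, below), and the probe set of its binding protein Il18bp was not apart from the median at 45.9, 45.5 and 47.4. The receptor antagonist Il1rn was called below on both of its probe sets, at percentiles 32.2 and 9.50.

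Among tissue and T cell interleukins, Il34, the other ligand of Csf1r, read 43.4, 43.1 and 48.0 and was not apart from the median (adjusted p = 0.65). Il33, an alarmin of barrier cells and glia, read 14.7, 18.5 and 17.9 on 1 probe set and 9.87, 11.2 and 12.3 on the other, both called below and both marked by their names as probe sets of relaxed or incomplete design. Il7, Il10, Il15 and Il16 were called below, at percentiles between 1.98 and 22.4. Il2, the T cell growth factor, read 6.53, 8.98 and 8.98, at percentile 4.19 ± 1.1, the lowest interleukin gene by the mean of its probe sets. Below calls also covered Il5, Il9, Il12a, Il12b, Il17a, Il17b, Il17d, Il21, Il1f8 and 3 of the 4 probe sets of Il4. Il11, Il13, Il1f5 and Il1f6 were not apart from the median.

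Interleukin receptor chains held the highest receptor signals. Of 48 probe sets for 30 genes, 18 (37.5%) were called above the median and 27 (56.3%) below, against 44.1% and 44% of all probe sets. At percentile 75 or more lay 9 (18.8%), against 26.5% of all probe sets with 1 symbol. Il10rb, a chain shared by the receptors of IL-10, IL-22 and type III interferons, read 1306.97, 1549.17 and 1532.62, or 33.1 times the array median (log2 difference 5.05 ± 0.080, SE; limma, adjusted p = 3.4e-08). Its partner chain for IL-10, Il10ra, read 26.5, 24.5 and 25.1 and was called below (adjusted p = 4.3e-05), as was Il10 itself at 19.5, 20.5 and 24.7.

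On design C, Il17rd, a member of the IL-17 receptor family also known as an inhibitor of FGF signalling, read 597, 416 and 437 (log2 difference 3.87 ± 0.12, SE; limma, adjusted p = 2.9e-06). Il20rb, a chain of the receptors for IL-20 family cytokines, read 650.26, 404 and 488 on 1 probe set and 310, 224 and 263 on the other (adjusted p = 4.0e-06 and 4.1e-06). Both Il20rb probe sets are marked by their names as shared with similar sequences, so their signal may come from other transcripts as well. In all 3 of these probe sets replicate 1 was the highest.

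Il6st, which encodes the signalling chain gp130 shared by the IL-6 family, read 275, 225 and 223 on 1 probe set of design A (log2 difference 2.45 ± 0.091, SE; limma, adjusted p = 5.9e-07). Another on design A read 18.5, 19.4 and 19.5, called below, and that on design C read 44.1, 39.9 and 38.3, called above (adjusted p = 0.0085). Il6ra, the chain that binds IL-6, read 53.4, 62.6 and 54.3 and was called above (adjusted p = 0.0042). Lifr, which pairs with gp130 for LIF, had 1 probe set above the median at 86.9, 78.5 and 103 and 4 below it, between percentiles 20.2 and 31.0.

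Il13ra1, which pairs with Il4ra for IL-4 and IL-13, was called above on both designs, at 129, 147 and 104.2 on design A and 83.9, 81.0 and 97.2 on design C (log2 differences 1.51 ± 0.11 and 1.42 ± 0.086, SE; limma, adjusted p = 1.2e-05 and 2.3e-05). Il4ra was not apart from the median on 1 probe set (46.2, 48.7 and 58.4; adjusted p = 0.060) and was called below on the other, where replicate 2 read 28.4 against 13.1 and 14.0. The decoy Il13ra2 was called below.

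In the IL-17 receptor family, Il17rc read 83.4, 103 and 101 (adjusted p = 1.4e-05) and Il17rb, the chain that binds IL-25, read 70.7, 58.2 and 64.8 (adjusted p = 0.00043), both above the median. Il17ra, the common chain, was called above at 54.8, 53.1 and 49.1 (adjusted p = 0.018) and below on 2 other probe sets. The first of these calls was lost without replicate 1 (adjusted p = 0.11) or replicate 2 (adjusted p = 0.052). Il17re, another member, was not apart from the median. The below call of Il17ra at 37.0, 36.6 and 41.2 was lost without any of the 3 replicates (adjusted p between 0.068 and 0.15).

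Receptors of the IL-1 family differed. Il1rl2, the IL-36 receptor, was called above at 92.6, 101 and 98.4 (adjusted p = 4.7e-06). Il1r1, the IL-1 receptor, read 32.3, 36.8 and 39.5 and was called below (adjusted p = 0.013), although not without replicate 1 (adjusted p = 0.099). The accessory chain Il1rap was called below on all 3 probe sets, as were the decoy Il1r2 on both and the IL-18 receptor chains Il18r1 and Il18rap.

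Receptor chains of lymphocyte cytokines were mostly low. Il7r read 9.41, 12.8 and 8.94, and Il5ra, the IL-5 receptor of eosinophils, had the lowest position of all members at 4.61, 4.36 and 4.5 (percentile 1.18 ± 0.24). Il15ra read 31.1, 37.0 and 38.0 (adjusted p = 0.0091, below, and 0.071 without replicate 1). Il2ra, Il3ra and Il12rb2 were called below. Il2rb, Il9r and Il12rb1 each had 1 probe set above and 1 below, and Il9r had another not apart from the median. Il27ra, a chain of the IL-27 receptor, was called above at 72.5, 77.8 and 75.6.

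Chemokine receptors among the members were mostly called below the median. Of 15 probe sets for 12 genes, 11 (73.3%) were called below the median and 1 (6.67%) above, against 44% and 44.1% of all probe sets. The class median was at percentile 18.6. On design A, which holds all 12 genes, the class median was 28.6, against 29.6 for interleukin receptors, and the pooled value includes 3 low probe sets of Ccr1 and Ccr9 on design B. The 1 above was Ccr6, a receptor of B cells and T cells, at 52.8, 51.0 and 50.6 (log2 difference 0.22 ± 0.071, SE; adjusted p = 0.021). This call was lost without replicate 1 (adjusted p = 0.12) or replicate 3 (adjusted p = 0.052). Cxcr2, the receptor of Cxcl1 and Cxcl2, read 14.8, 10.5 and 10.6, and Ccr2, the receptor of Ccl2, read 16.0, 16.0 and 19.1 (limma, adjusted p = 5.7e-06 and 4.9e-06). Cxcr3 read 42.1, 39.2 and 39.5 and was not apart from the median (adjusted p = 0.13), nor were Ccr4 and Ccr8. Ccr1l1, Ccr3, Ccr7, Ccr9 and Cxcr5 were called below. Ccr1, a receptor of Ccl3 and Ccl5 on myeloid cells, was the lowest gene, with 3 probe sets at percentiles 15.5, 3.99 and 2.74. One of them, at 11.2, 4.43 and 8.26, had the widest range of any member over replicates, 1.34 on the log2 scale.

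Set against each other, ligand and receptor probe sets did not differ in a way that held across settings. The sides are not matched. The choice by symbol took in Csf1, Csf2, Csf3, Tnf and Cx3cl1 but not their receptor genes, and it left out Cxcr4, the receptor gene of Cxcl12. Ligands had 21 of 80 probe sets above the median (26.3%) and 46 below, and receptors had 19 of 63 above (30.2%) and 38 below. The median percentile was 36.8 for ligands and 32.9 for receptors. The difference between the medians, ligands minus receptors, was 3.43, 4.07 and 5.58 percentile points in replicates 1, 2 and 3. On design A it was 6.64 and on design B 5.83, but on design C it was -40.3, with 10 ligand probe sets at a median of 30.1 and 8 receptor probe sets at 70.3. Without the probe sets whose names mark them as shared or relaxed it was -0.87 over all designs, with only the highest probe set of each gene -6.55, and with a mean per gene, an alternative chosen after seeing the data, -4.04. Receptors had 13 genes with several probe sets of 42, and ligands 12 of 62. These differences are descriptions, and no test was made over genes.

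**Figure D3:**
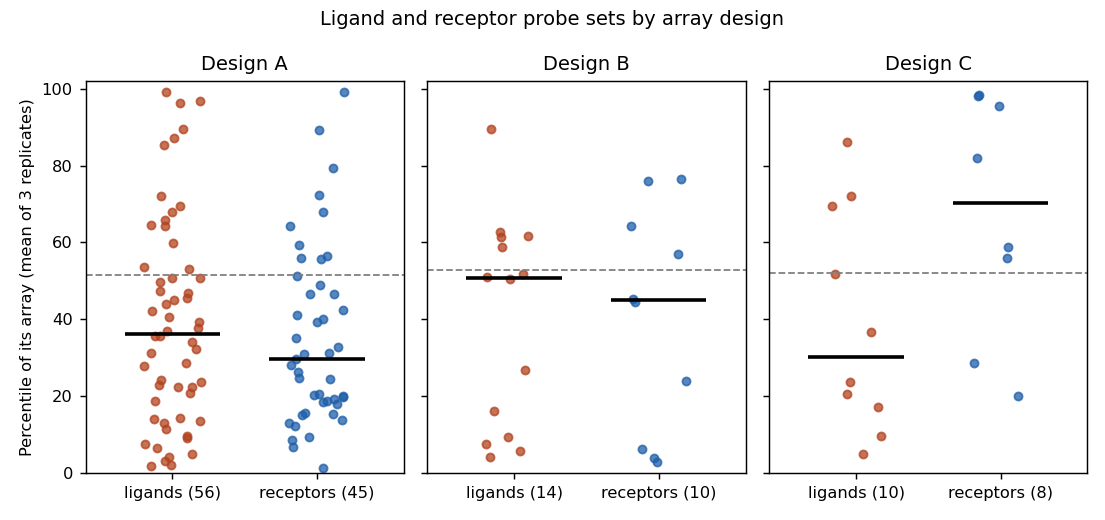
Percentile of ligand (red, left) and receptor (blue, right) probe sets on each array design (mean of 3 replicates), with the median of each group as a black bar and that of all probe sets with 1 symbol as a dashed line. The ligand median lies above the receptor median on designs A and B and below it on design C.

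Counted by gene, 17 of 62 ligand genes had a probe set called above the median, of which 3 also had one below, and 36 had below calls without any above. Over all 15964 genes with 1 symbol, 61% had a probe set above and 32.2% had below calls without any above. Of 42 receptor genes, 16 had a probe set above, of which 6 also had one below, and 22 had below calls without any above. Against 44.1% of all probe sets, above calls within ligands reached 9 of 20 CXC, 5 of 21 CC or CX3C, 4 of 4 growth factor or TNF and 3 of 35 interleukin probe sets. Within receptors they reached 18 of 48 interleukin receptor and 1 of 15 chemokine receptor probe sets.

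A stricter level came from genes of unrelated tissues on design A. The 90th percentile of their 44 probe sets was 70.6, 76.6 and 78.0 in the 3 replicates. Above it on all 3 arrays lay 7 of 56 ligand probe sets, for Cxcl1, Cxcl2, Cxcl12 and Csf1, and 4 of 45 receptor probe sets, for Il10rb, Il6st, Il13ra1 and Lifr. The background was 28.9% of all 12422 probe sets of design A. Ccl2, Csf2 and Tnf, although called above the array median, did not exceed it on every array, nor did Csf3.

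Probe sets of the same gene often disagreed. Of 25 genes with several probe sets, 9 had calls on both sides of the median, and the positions differed by 50 percentile points or more in 3, Cxcl16, Il6st and Lifr. The widest gap was that of Cxcl16, from percentile 5.76 to 89.5. Both probe sets of Cxcl1, Il13ra1 and Il20rb lay at percentile 75 or more, and all those of Il7, Il33, Cxcl15, Ccr1 and Ccr9 were called below. Calls for genes with a single probe set have no such check.

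**Figure D4:**
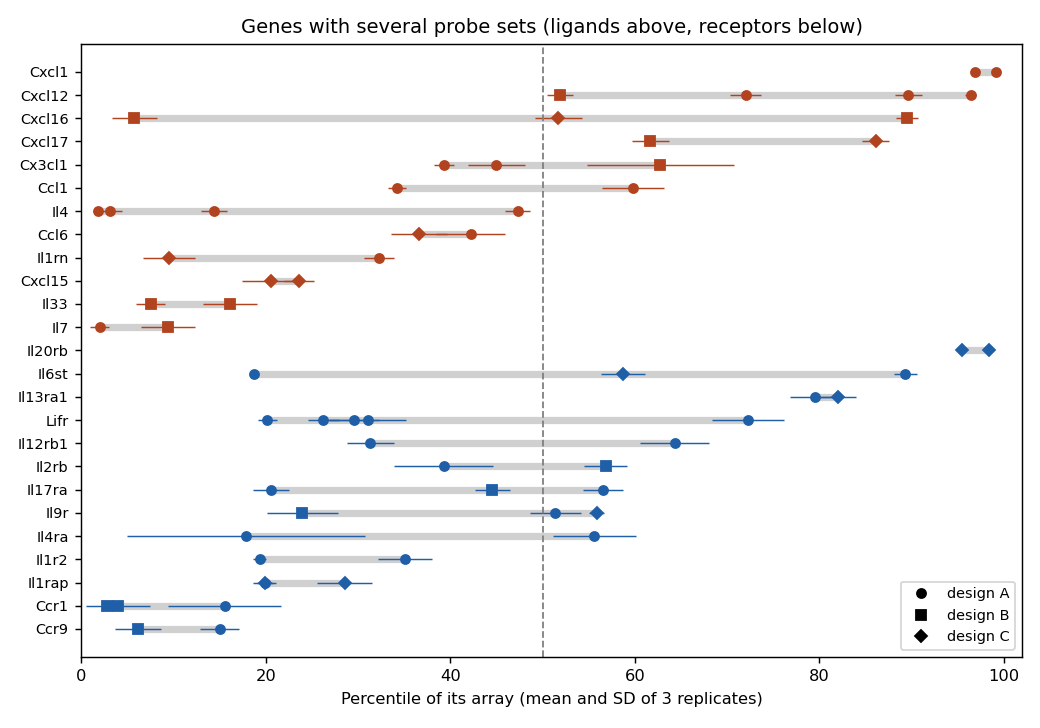
Percentile (mean and SD of 3 replicates) of every probe set of the 25 member genes with several probe sets, ligands in red above and receptors in blue below, with the array design by symbol and a grey bar over the range. The dashed line is percentile 50, and Cxcl16, Il6st and Lifr span the widest ranges.

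Ligands and receptor chains were also set side by side by signalling system. Of 18 systems with both sides among the members, 5 had a ligand gene and 3 had every receptor chain with a probe set called above. In 1 system, IL-25 with Il17ra and Il17rb, both held. Of all genes with 1 symbol, 61% had a probe set called above, so these counts do not mark the systems as high. In the CXCR2, CCR2, CCR3 and CCR8 systems a ligand was above and the receptor was not. For CCR8 that ligand was Ccl1, whose other probe set was called below, at percentile 34.2. In the IL-6 and IL-17A systems the receptor chains were above, and the ligands Il6 and Il17a were called below. Il6st in the IL-6 system also had a probe set called below, at percentile 18.7. Il17ra counts here through 1 of its 3 probe sets, whose call was lost without replicate 1 or replicate 2. With Il17ra not counted as above, 1 system had every receptor chain above and 0 had both. With so few systems on either side, the counts say nothing about pairing. The systems were put together from textbook pairings after the values were seen.

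**Figure D5:**
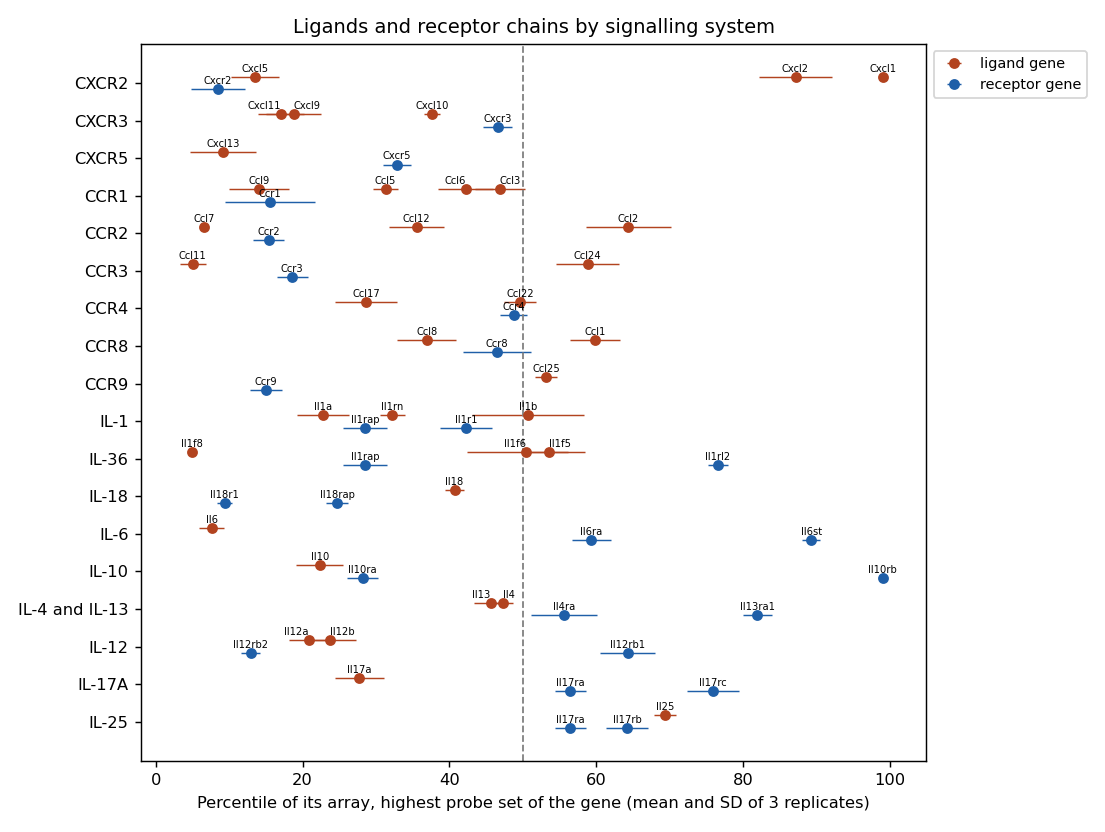
Percentile of the highest probe set (mean and SD of 3 replicates) of each ligand gene (red, upper line) and receptor chain gene (blue, lower line) in 18 signalling systems, with percentile 50 dashed. In the CXCR2 system Cxcl1 and Cxcl2 lie at percentiles 99.1 and 87.2 and Cxcr2 at 8.46, and in the IL-6 system Il6st lies at 89.3 and Il6 at 7.61.

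Genes that act downstream of these receptors were called on both sides of the median. Of 66 probe sets for 29 such genes, 36 (54.5%) were called above and 27 below, against 44.1% above for all probe sets, and their median percentile was 59.3, against 52.1 for all probe sets with 1 symbol. Jak1, the kinase bound to gp130 and to many interferon and interleukin receptors, read 572, 555 and 551 on design C and 134, 124 and 126 on design A. Stat3, the main STAT of gp130, had 3 probe sets above, between percentiles 79.3 and 93.7, and 1 below. The feedback inhibitor gene Socs3 read 269, 129 and 211 and 77.4, 73.7 and 72.1 on design A, above the median, and 30.4, 34.7 and 46.8 on design B, not apart from it. The phosphatase Ptpn11 lay at percentile 98.8 on both probe sets of design B and 23.6 on design A. Jak2 and Stat4 were called below, and Jak3 was not apart from the median.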

How the data were processed

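The authors deposited 1 intensity per probe set and array, in a table for each design. That the scale is linear was read from the values, and neither labels nor headers name the summary algorithm, software or scaling. No deposited value was negative, and 7 that were 0, none of a member, were set to the array's smallest positive value. Names came from the platform annotation, and all 145 member probe sets matched RefSeq for GRCm38.p6 by Entrez identifier.

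Log2 intensities were centred on the array median and each design was fitted on its own with limma 3.58.1 in R 4.3.3 (lmFit and eBayes, two-sided test against 0, Benjamini-Hochberg over all probe sets of the design). The fit was tested on simulated data. A shift of 1 on the log2 scale was recovered in 71%, 67% and 56% of cases for designs A, B and C. A smaller shift was recovered in 26%, 16% and 24%. False calls were 3.96%, 1.19% and 3.61% of calls. The simulation shifted far fewer probe sets than were called here, so these shares do not carry over to the arrays. Percentiles, counts and figures were made in Python 3.11.15. Precision is limited by the number of arrays.

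The members and lists were chosen with earlier results of these data known. Genes named were, per class, those called above the median at percentile 75 or more and the lowest one, with 48 preset genes (41 measured), genes whose probe sets differ by 50 points and the 3 widest ranges. Others were named after their values were seen. The alternatives tried were other reference levels, an offset of 50, quantile normalization, leaving out dim, specially marked or weaker probe sets, design A alone and leaving out each replicate. Background correction and array batch could not be varied without scanner files.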

Additional observations from a re-analysis of the deposited data

How the results depend on the processing

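Adding 50 before logarithms and quantile normalization left all 86 named probe sets with the same direction and call. Against each array's 40th percentile, 71 kept both, against the 75th 55, and with dim probe sets left out 49 of 67. With the 75th percentile as reference, above calls numbered 15 over all members, 8 for ligands and 7 for receptors, and below calls 70 for ligands. With the 40th percentile, ligands had 33 above calls. A higher reference lowers above calls by construction, and no share over all probe sets stands beside these counts. On design A alone above calls numbered 22 for members, 13 for ligands and 9 for receptors. Lower counts follow by construction from fewer probe sets, but the shares called above fell as well. They were 21.6% for members, 23.2% for ligands and 20% for receptors, against 27.6%, 26.3% and 30.2% over all designs. With the highest probe set per gene, receptors had 21 below calls. The ligand median was 39.8 without dim probe sets. The receptor median was 36.8 with plain probe sets, 43.8 with the highest probe set per gene, 29.6 on design A and 40.3 with a mean per gene (chosen after seeing the data). The median of ligands minus receptors was 6.09 without dim probe sets, 6.64 on design A, and negative with plain probe sets (-0.87), the highest probe set per gene (-6.55) and a mean per gene (-4.04). Above the array median on all 3 arrays of design A, in place of the level of unrelated tissues, lay 26 probe sets, and with the offset of 50 the median SD was 0.044. The cause of the shifts that do not follow by construction was not tested.

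Leaving out each replicate gave 36 to 37 members above and 80 to 84 below, 20 to 21 ligands above and 44 to 46 below, and 16 receptors above and 35 to 37 below. Medians were 36.7 to 37.9 for ligands and 32.0 to 33.9 for receptors, with a difference of 3.95 to 4.95. Above unrelated tissues lay 11 to 13 probe sets, and the median SD was 0.097 to 0.116.

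Log2 differences that changed sign against the 75th percentile were Ccl1 -0.79, Ccl2 -0.58, Ccl24 -0.72, Ccl28 -0.62, Ccr6 -0.96, Csf2 -0.52, Csf3 -0.33, Cx3cl1 -0.54, Cxcl12 -0.999, Cxcl12 -0.19, Cxcl16 -0.95, Cxcl17 -0.61, Il17ra -0.93, Il17rb -0.50, Il18bp -1.11, Il1b -1.15, Il25 -0.26, Il27ra -0.41, Il3 -0.41, Il31 -0.12, Il34 -1.03, Il4ra -0.97, Il6ra -0.82, Il6st -0.69, Lifr -0.17 and Tnf -0.58. Those against the 40th percentile were Ccl3 0.25, Cx3cl1 0.17, Cxcr3 0.24, Il15ra 0.043, Il17ra 0.16, Il18 0.025 and Il1r1 0.077. Those without dim probe sets were Ccr6 -0.11, Cxcl12 -0.26, Cxcl16 -0.25, Il17ra -0.082, Il18bp -0.26, Il1b -0.30, Il34 -0.29 and Il4ra -0.12. With each replicate left out, Il1b ranged from -0.14 (without replicate 1) to 0.14.

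No paired analysis was possible because all arrays belong to 1 condition, the designs hold different probe sets and no groups are contrasted. With 3 arrays per design and no detection calls, signals near the level of unrelated tissues cannot be told from the absence of a transcript. Members not apart from the median had log2 differences from it between -0.19 and 0.21.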
